A study of Rattus norvegicus with 6 samples.

Results

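The genes described here encode the channels that let calcium out of the endoplasmic reticulum, the pumps that return it, and the sensors that read how full the store is. They are the ryanodine receptors Ryr1, Ryr2 and Ryr3, the inositol trisphosphate (IP3) receptors Itpr1, Itpr2 and Itpr3, the pumps Atp2a2 and Atp2a3, and the sensors Stim1 and Stim2. These 10 genes were taken by name, by a rule that reads no measured value but with earlier results of these data known, out of 22093 genes with a probe set of their own. All 10 were measured, each by 1 probe set, which is the group of probes that together report 1 transcript cluster. Both groups were male Sprague-Dawley rats of 18 months, and each array carried hippocampal RNA of 1 rat. The sevoflurane group (n = 3) breathed 100% oxygen carrying 2.5% sevoflurane over 4 h, the control group (n = 3) breathed 100% oxygen without it over the same 4 h, and tissue was taken 3 h after the end of exposure. Sevoflurane is a volatile anesthetic, and the question addressed was how a single long exposure alters hippocampal transcription in old animals.

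A ryanodine receptor opens when calcium rises beside it, which amplifies a small calcium entry, whereas an IP3 receptor needs IP3, made by phospholipase C below surface receptors, together with calcium. SERCA pumps use ATP to refill the store, and Stim proteins in its membrane sense falling luminal calcium and open Orai channels at the cell surface. In hippocampal neurons this cycle shapes synaptic plasticity, and volatile anesthetics are known to act on it, most clearly in malignant hyperthermia, where variants of the skeletal muscle channel Ryr1 make store release excessive.

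No difference between the sevoflurane and control groups was detected for any of the 10 genes. By limma, 0 of 10 passed an unadjusted p under 0.05 and 0 passed after Benjamini-Hochberg adjustment, with every adjusted p at 1. Of all features, 1.61% of 68842 probe sets and 1.32% of the 22093 genes passed the unadjusted threshold, and 0 probe sets passed the adjusted one, where the smallest adjusted p from limma was 0.184. This background moved with most settings. For example, 1108 probe sets passed with all arrays, 624 without control replicate 1 and 4138 without sevoflurane replicate 1. Among the 10 genes the count was still 0 in those fits. Of the 10 differences 4 were positive and 6 negative. Their median was -0.02 on the log2 scale, against 0.02 over all genes, and their median size was 0.0599, against 0.0568 over all genes. All 10 of the 95% intervals lay within a change of 1.5-fold either way, with the edge farthest from 0 at 1.42-fold, as they did for 94% of all genes. Under the alternatives at least 8 of the 10 did, with 8 for example after centring on the median. Ryr1, Itpr3 and Atp2a3 did not exceed the 95th percentile of the background controls on any array. For them the interval is one of signal, and how far it limits a change in transcript was not tested. Hippocampal tissue mixes many cell types, and in such samples fewer cells of a type and less RNA per cell cannot be told apart.

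One array stood apart before any comparison was made. The values of sevoflurane replicate 1 spread less, with an SD over probe sets of 1.85 (1.93 to 2.03 on the other 5 arrays), and its mean correlation with the other arrays was 0.986 (0.991 to 0.993). Its background controls were brightest, with a median of 3.96 on the log2 scale (3.46 to 3.71 on the others). Markers of hippocampal principal cells were present on every array, with a list mean over 16 genes of 8.55, 8.81 and 8.63 in the sevoflurane group and 8.83, 8.72 and 8.65 in the control group. Markers of thalamus and habenula, which border the hippocampus, differed between the groups: 8 of 20 passed an unadjusted p under 0.05, all 8 of them higher, with a list mean of 7.15, 7.56 and 6.90 after sevoflurane and 6.69, 6.81 and 6.77 in controls. The part of adjoining tissue in the values of the calcium genes was not tested.

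All 3 ryanodine receptors had a negative difference, and none was distinguishable from 0. Ryr2, the isoform of heart muscle that is also the main one of forebrain neurons, had a normalized expression of 8.88, 9.36 and 9.19 in the sevoflurane group and 9.50, 9.20 and 9.21 in the control group. The groups overlapped, with the lowest value on sevoflurane replicate 1 and the highest on control replicate 1. The means were 9.15 ± 0.24 after sevoflurane and 9.30 ± 0.17 in controls (SD, n = 3 each), a difference of -0.16 with a standard error of 0.153, 1.11-fold in size (95% interval -0.51 to 0.19, unadjusted p = 0.338 from limma, exact permutation p = 0.4). Ryr3, a lower-abundance isoform studied in hippocampal plasticity, repeated that layout, at 7.60, 8.00 and 8.02 after sevoflurane and 8.22, 7.79 and 7.98 in controls. Its difference was -0.12 (95% interval -0.49 to 0.25, unadjusted p = 0.471 from limma). Without sevoflurane replicate 1 the difference of Ryr3 was 0.02, so its sign rested on that array. Ryr1 hardly varied, at 6.72, 6.52 and 6.57 after sevoflurane and 6.62, 6.60 and 6.65 in controls. Its difference was -0.02 (95% interval -0.26 to 0.23, unadjusted p = 0.876 from limma).

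**Figure D1:**
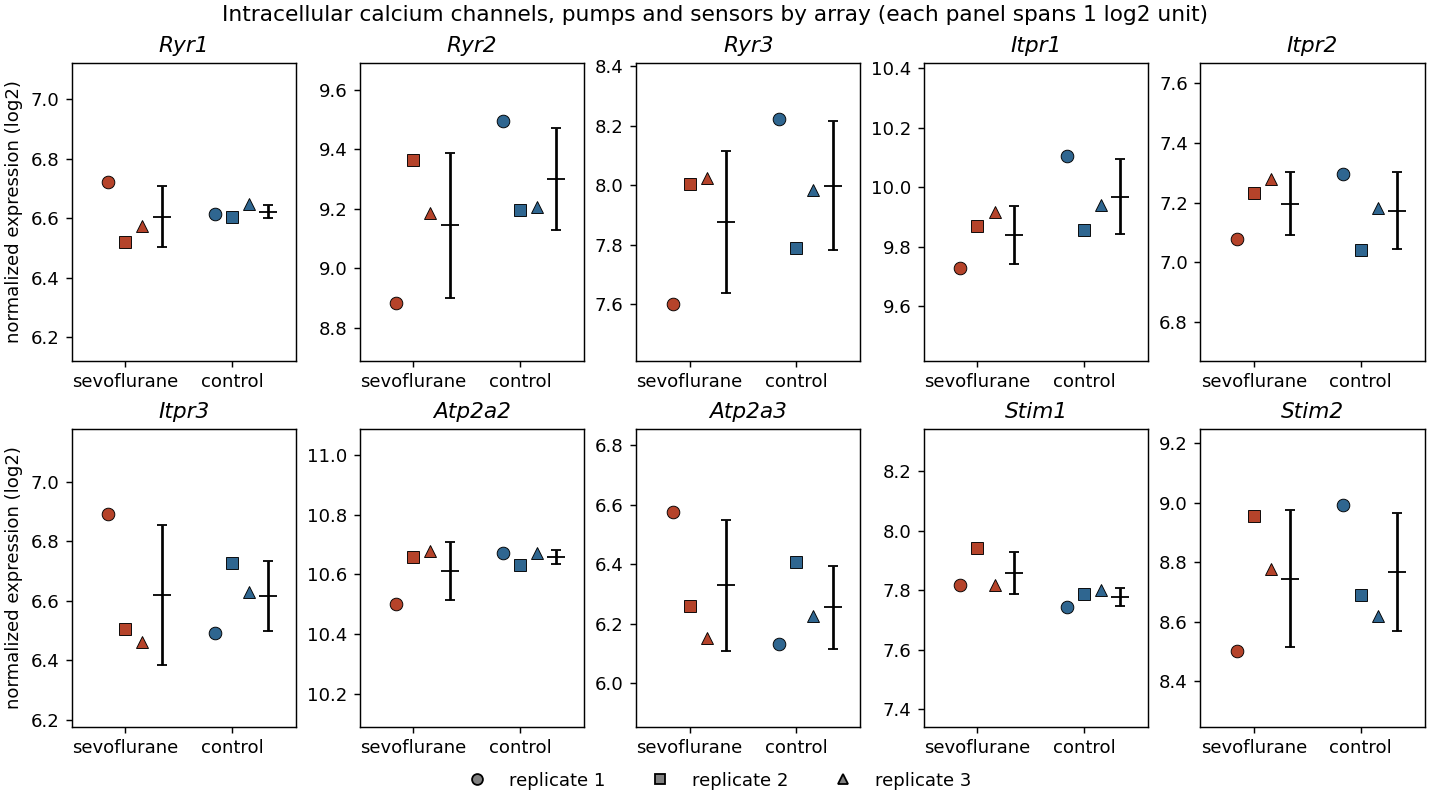
Normalized expression (log2) of the 10 genes on each array, 1 panel a gene, with the 3 sevoflurane arrays left of the 3 control arrays and bars for the group means ± SD. Sevoflurane replicate 1 is the lowest of the 6 arrays for 5 genes and the highest for 3, and Stim1 alone has groups that do not overlap.

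The IP3 receptors gave small differences of both signs. Itpr1, the isoform that predominates in central neurons, had the smallest unadjusted p of the 10 genes. Its values were 9.73, 9.87 and 9.92 in the sevoflurane group and 10.11, 9.86 and 9.94 in the control group, so the groups overlapped and control replicate 1 stood highest. The means were 9.84 ± 0.10 after sevoflurane and 9.97 ± 0.13 in controls (SD, n = 3 each), and the difference was -0.13 with a standard error of 0.116, 1.09-fold in size (95% interval -0.40 to 0.14, unadjusted p = 0.296 from limma, exact permutation p = 0.3). Itpr2, the isoform best known from astrocytes and heart, was at 7.08, 7.23 and 7.28 after sevoflurane and 7.30, 7.04 and 7.18 in controls. The difference of Itpr2 was 0.02 (95% interval -0.25 to 0.29, unadjusted p = 0.855 from limma). Itpr3, an isoform prominent in epithelia and taste cells, was at 6.89, 6.50 and 6.46 after sevoflurane and 6.49, 6.73 and 6.63 in controls. Here the highest value was on sevoflurane replicate 1, and the means were equal to 2 decimals, at 6.62 in both groups (unadjusted p = 0.982 from limma, 95% interval of the difference -0.32 to 0.33). Without sevoflurane replicate 1 the difference of Itpr3 was -0.13.

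Neither pump passed the test. Atp2a2 encodes SERCA2, whose SERCA2b splice form is the housekeeping pump of the endoplasmic reticulum, and it was measured tightly, at 10.50, 10.66 and 10.68 after sevoflurane and 10.67, 10.63 and 10.67 in controls. Only sevoflurane replicate 1 departed from the rest. The difference was -0.05 (95% interval -0.29 to 0.19, unadjusted p = 0.669 from limma). Atp2a3 encodes SERCA3, known from platelets, lymphocytes and endothelium, and was at 6.58, 6.26 and 6.15 after sevoflurane and 6.13, 6.41 and 6.23 in controls. Its difference was 0.07 (95% interval -0.25 to 0.40, unadjusted p = 0.620 from limma), with the highest value again on sevoflurane replicate 1, without which it was -0.05.

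Of the sensors, Stim1 was the only gene of the 10 whose groups did not overlap. Its values were 7.82, 7.94 and 7.82 in the sevoflurane group and 7.74, 7.79 and 7.80 in the control group, every sevoflurane array above every control array. The step between the groups is narrow, and the means were 7.86 ± 0.07 after sevoflurane and 7.78 ± 0.03 in controls (SD, n = 3 each). The difference of 0.08, or 1.06-fold, did not pass limma (standard error 0.102, 95% interval -0.15 to 0.31, unadjusted p = 0.448), and its exact permutation p of 0.1 is the smallest that 3 arrays against 3 can give. Groups did not overlap for 6.27% of all genes, and with the sevoflurane group higher for 4.93%, so 1 gene of 10 is near the background. Stim2, the sensor that responds to smaller losses of store calcium and maintains resting levels, was at 8.50, 8.96 and 8.78 after sevoflurane and 8.99, 8.69 and 8.62 in controls. Its difference was -0.02 (95% interval -0.38 to 0.33, unadjusted p = 0.886 from limma), and 0.10 without sevoflurane replicate 1.

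**Figure D2:**
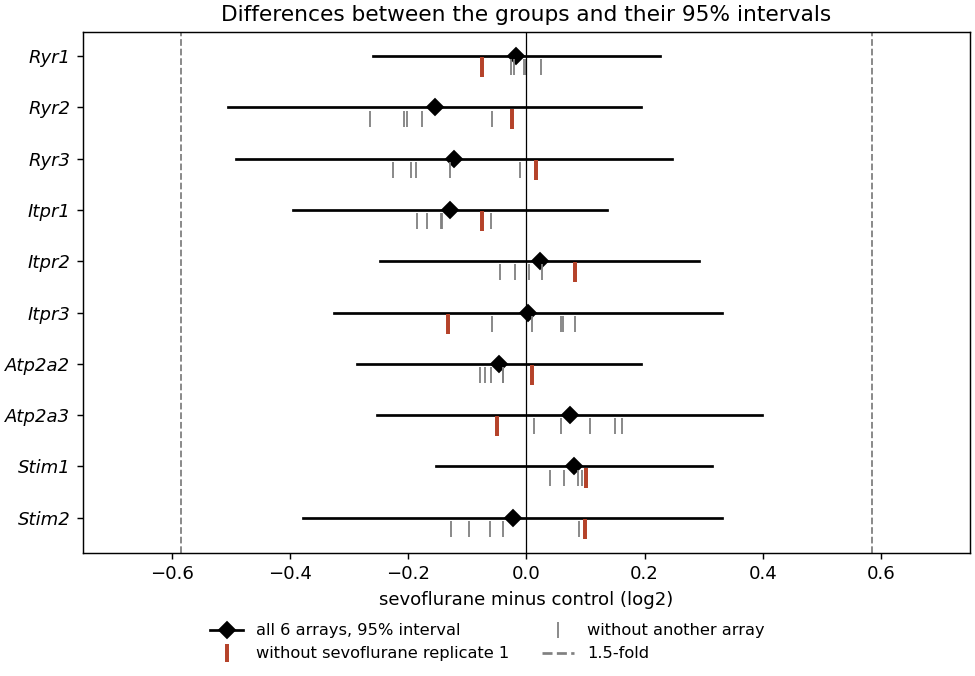
Sevoflurane minus control on the log2 scale for each of the 10 genes, as diamonds with 95% limma intervals and ticks for the value with 1 array left out. All 10 intervals cross 0 and stay within the dashed lines at 1.5-fold, and the red tick without sevoflurane replicate 1 lies on the other side of 0 for Ryr3, Itpr3, Atp2a2, Atp2a3 and Stim2.

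How firmly each gene can be read depends on its brightness over background. Each of the 10 genes exceeded, on each of the 6 arrays, the median of 23 probe sets that serve as background controls. Ryr2, Ryr3, Itpr1, Atp2a2, Stim1 and Stim2 also lay above the 95th percentile of those controls on all 6 arrays, and Itpr2 did so on 4. Ryr1, Itpr3 and Atp2a3 did so on none, so these 3 lay between the median and the 95th percentile of the controls. The control median ran from 3.46 to 3.96 over the arrays and the 95th percentile from 6.83 to 7.36. The controls were pooled and not matched to the base content of a gene's probes. The spread within groups varied widely between the genes. The within-group SD was 0.0551 for Stim1, 0.0709 for Atp2a2 and 0.0748 for Ryr1, and 0.228 for Ryr3, 0.214 for Stim2 and 0.210 for Ryr2. Among all genes these stand at percentiles 8.4, 15 and 16.8, and at 81, 76.9 and 75.6, in the same order. The median over the 10 genes was 0.151, against 0.146 over all genes.

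The array-to-array differences of these genes followed their brightness in part. Sevoflurane replicate 1 was compared with the mean of the other 5 arrays, and each gene was set beside the median of the genes within 0.5 of its own log2 level. On that array Ryr2 deviated by -0.41 (median of genes at its level -0.16), Ryr3 by -0.40 (-0.10) and Stim2 by -0.31 (-0.15). Itpr2 deviated by -0.13 (-0.03). Atp2a2 at -0.16 (-0.14) and Itpr1 at -0.21 (-0.15) were closer to genes of their brightness, and Stim1 did not run low, at 0.00 (-0.09). At the dim end Itpr3 deviated by 0.33 (0.09) and Atp2a3 by 0.34 (0.16), while Ryr1 was at 0.13 (0.09). On this array, then, 6 genes ran low and Ryr1, Itpr3 and Atp2a3 ran high. Ryr2, Ryr3, Stim2, Itpr2, Itpr3 and Atp2a3 deviated by more than 0.1 beyond the median of genes at their level. Control replicate 1 showed the opposite for several of these genes, with Ryr3 at 0.34 (-0.01), Ryr2 at 0.33 (0.04), Stim2 at 0.28 (0.03) and Itpr1 at 0.24 (0.05), and Itpr3 at -0.15 (-0.07) and Atp2a3 at -0.19 (-0.09). Leaving out either array changed no call among the 10 genes.

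**Figure D3:**
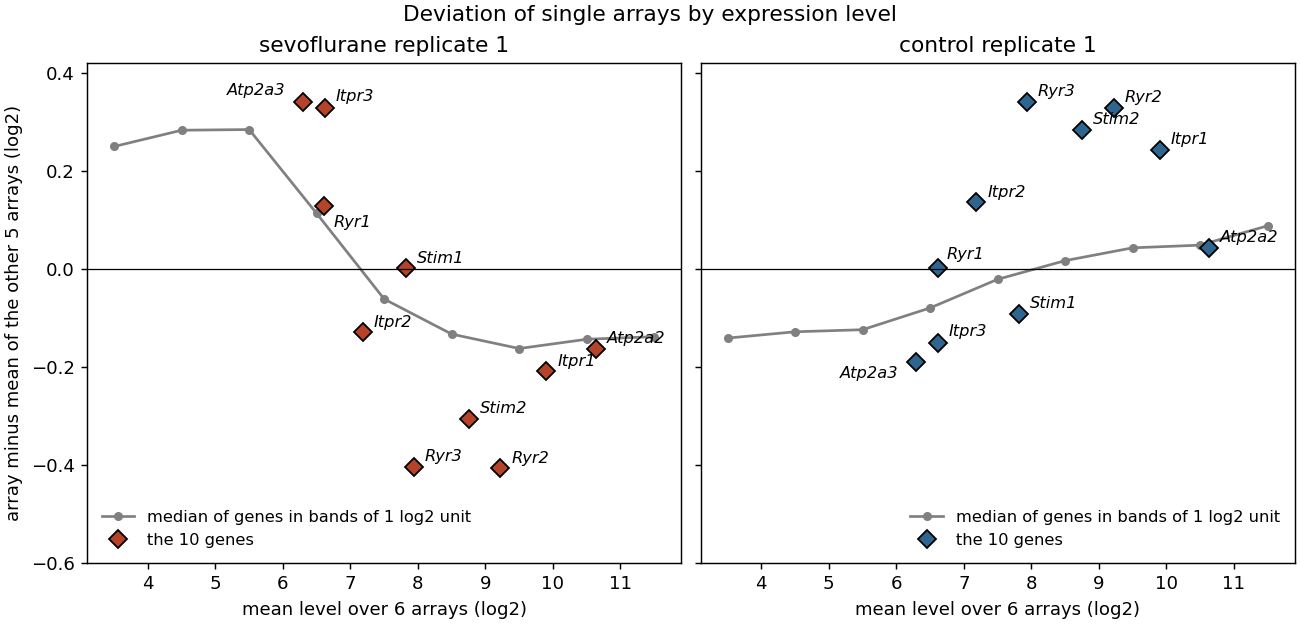
Deviation of 1 array from the mean of the other 5 (log2) against mean level (log2), for sevoflurane replicate 1 on the left and control replicate 1 on the right. Diamonds are the 10 genes and the grey line is the median of all genes in bands of 1 log2 unit, and Ryr2 and Ryr3 lie below that line on the left, at -0.41 and -0.40, and above it on the right, at 0.33 and 0.34.

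Other measures moved over the arrays with these genes. The mean of the hippocampal principal cell markers was lowest on sevoflurane replicate 1 and highest on control replicate 1, as were Ryr2, Ryr3, Itpr1 and Stim2. Genes of any kind at a log2 level of 8 to 9 had a median deviation of -0.13 on sevoflurane replicate 1 and 0.02 on control replicate 1. The mean of 10 markers of platelets and blood was 6.45, 6.16 and 6.14 after sevoflurane and 6.17, 6.44 and 6.27 in controls, with the highest values on sevoflurane replicate 1 and control replicate 2, the arrays on which Itpr3 and Atp2a3 were highest too. The median background control probe set followed the same layout, at 3.96, 3.58 and 3.52 after sevoflurane and 3.46, 3.71 and 3.68 in controls. Of the platelet and blood markers, Hba-a1 lay above the 95th percentile of the background controls on all 6 arrays and each of the rest on 0. Hba-a1 itself was not highest on sevoflurane replicate 1, at 10.91, 10.96 and 10.91 after sevoflurane and 11.15, 11.32 and 10.86 in controls. No marker of principal cells or of platelets and blood passed an unadjusted p under 0.05 from limma between the groups. These 2 lists were picked for display after their values were seen, and the part of cell makeup or of background signal in the spread of the calcium genes was not tested.

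**Figure D4:**
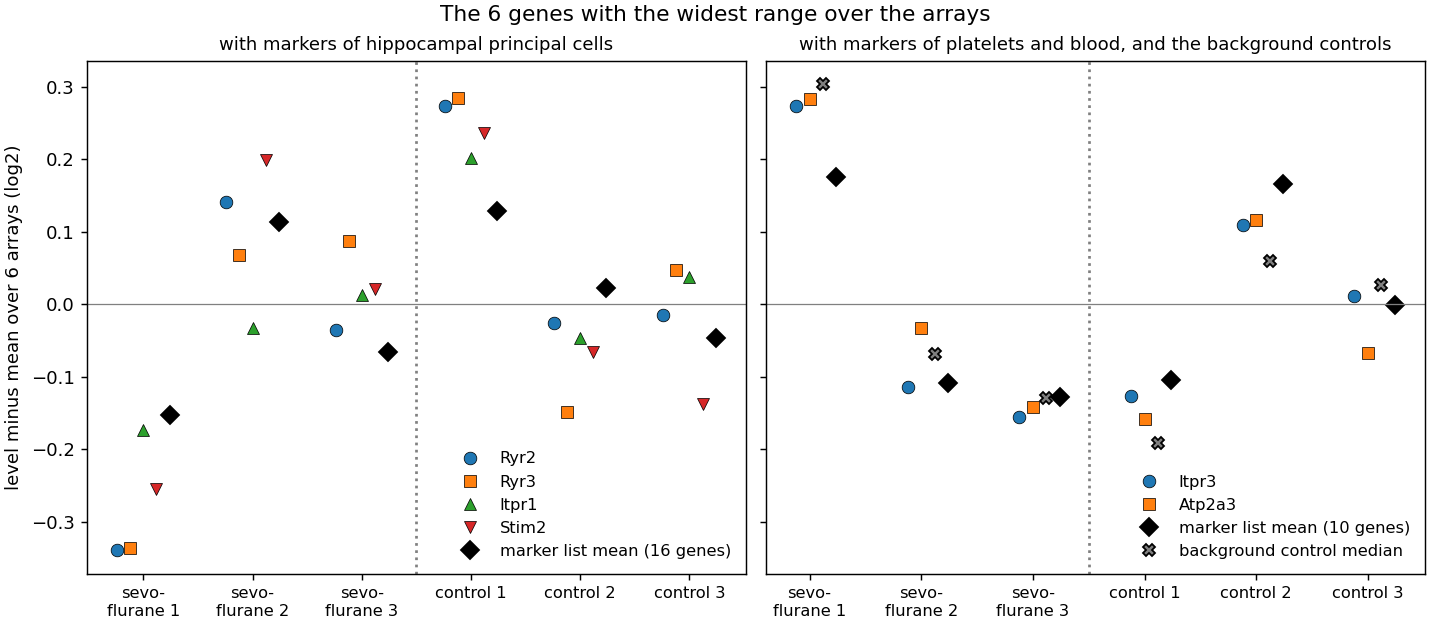
Level minus the mean over the 6 arrays (log2) for the 6 genes with the widest range, with the 3 sevoflurane arrays left of the 3 control arrays. Black diamonds are the mean of 16 principal cell markers (left panel) and of 10 platelet and blood markers (right panel), and grey crosses the median background control probe set. Ryr2, Ryr3, Itpr1 and Stim2 are lowest on sevoflurane replicate 1 and highest on control replicate 1, while Itpr3 and Atp2a3 are highest on sevoflurane replicate 1.

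The genes whose centred values lay nearest to those of Itpr1 and Ryr2, which had the lowest unadjusted p of the 10, were searched. The search covered 15082 genes brighter than the median probe set. For Itpr1 the nearest were the growth factor Ptn, Fibp and the tubulin pseudogene Tuba1a-ps1, at root mean square distances of 0.0274, 0.0315 and 0.0337 over 6 arrays (median of the genes searched 0.156). For Ryr2 they were the potassium-dependent sodium-calcium exchanger Slc24a2, the syntaxin-binding protein Stxbp5 and the calmodulin kinase Camk1d, at 0.0275, 0.0282 and 0.0289 (median 0.212). None of these 6 genes passed an unadjusted p under 0.05 from limma. That is no separate result, because the search picked genes with values like those of Itpr1 and Ryr2, which did not pass.

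The promoters of Itpr1 and Ryr2 are shown because these genes gave the lowest unadjusted p and shared a pattern over the arrays. Each window runs from 250 bases before to 50 after the transcription start in the RefSeq annotation of GRCr8, on the plus strand at chr4:142743190-142743489 for Itpr1 and chr17:63081277-63081576 for Ryr2. Capitals mark the core bound by hypoxia-inducible factors, ACGTG or GCGTG on either strand.
Itpr1: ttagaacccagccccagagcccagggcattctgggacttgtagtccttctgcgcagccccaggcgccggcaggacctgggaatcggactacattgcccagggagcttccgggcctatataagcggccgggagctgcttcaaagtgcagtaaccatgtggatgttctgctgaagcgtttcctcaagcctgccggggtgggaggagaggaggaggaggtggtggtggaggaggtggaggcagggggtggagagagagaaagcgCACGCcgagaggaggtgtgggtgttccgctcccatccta
Ryr2: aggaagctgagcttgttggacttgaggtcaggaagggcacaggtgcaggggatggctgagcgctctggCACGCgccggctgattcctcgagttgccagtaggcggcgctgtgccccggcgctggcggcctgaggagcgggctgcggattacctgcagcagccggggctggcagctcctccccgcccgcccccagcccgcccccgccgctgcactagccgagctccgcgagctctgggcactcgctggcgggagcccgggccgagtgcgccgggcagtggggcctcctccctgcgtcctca
The capitals in both windows read GCGTG on the other strand, at 11 bases from the start in Itpr1 and at -182 in Ryr2. At least 1 such core lay in the windows of 8 of the 10 genes, all but Ryr3 and Atp2a3, and in 41.6% of 33469 promoter windows of this length. In Itpr3 the letters CACGTG match on both strands and overlap. The windows of the 10 genes were mostly rich in G and C, at 46% to 79%, against a median of 51.7% over all windows. The palindromic glucocorticoid response element was in none of the 10 and in 0.0149% of all windows, and the ER stress response element was in none and in 0.0657%. A match or its absence describes letters in a window and not a site in use.

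Around these genes, 8 lists cover the rest of calcium handling, and 7 of them held no gene at an unadjusted p under 0.05 from limma. Over the lists 168 of 182 genes were measured and 3 passed, all higher after sevoflurane, which is 1.79% of those measured, against 1.1% of all genes higher at that threshold. None passed after adjustment. All 3 belong to the list of IP3 and cyclic ADP-ribose production and removal, with 29 genes measured. That list also holds the receptor Grm5 and the G proteins Gnaq and Gna11. All 3 genes that passed are phospholipases C, which cut a membrane lipid into IP3 and diacylglycerol. Plcd4, a delta isoform activated by calcium itself, was at 6.80, 7.03 and 7.05 in the sevoflurane group and 6.49, 6.55 and 6.61 in the control group. The groups of Plcd4 were clear of each other, at 6.96 ± 0.14 after sevoflurane and 6.55 ± 0.06 in controls (SD, n = 3 each). The difference was 0.41 with a standard error of 0.115 (95% interval 0.14 to 0.67, unadjusted p = 0.00708 and adjusted p = 1 from limma), and it kept an unadjusted p under 0.05 under all 14 alternatives. Plcd4 lay above the 95th percentile of the background controls on 1 of 6 arrays. The mean of 12 astrocyte markers also did not overlap, at 8.94, 8.96 and 9.02 after sevoflurane and 8.82, 8.79 and 8.88 in controls. That mean includes Gjb6, whose difference of 0.76 was the largest of the list in size. Of the 12 differences 10 were positive, among them Slc1a2 at 0.01, and 2 were negative, Sox9 at -0.27 and S100b at -0.005. Groups did not overlap for 4 of the 12, against 6.27% of all genes. The thalamus and habenula markers were higher. The part of astrocytes or of adjoining tissue in the Plcd4 value was not tested.

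Plcb4, a Gq-coupled isoform abundant in thalamus and cerebellum, was at 7.25, 7.43 and 7.28 after sevoflurane and 6.83, 7.01 and 7.15 in controls. Its difference was 0.33 (unadjusted p = 0.0285 and adjusted p = 1 from limma), which fell short of the threshold without sevoflurane replicate 2 (unadjusted p = 0.106), control replicate 1 (0.116) or control replicate 2 (0.0651). The differences in those fits were 0.27, 0.24 and 0.33. It lay above the 95th percentile of the background controls on 3 of 6 arrays. Sevoflurane replicate 2 was highest for Plcb4 and also for the thalamus and habenula markers, where the kinase Prkcd was at 8.18, 8.40 and 7.85 after sevoflurane and 6.69, 6.88 and 7.17 in controls. The part of adjoining tissue in the Plcb4 value was not tested. Plce1, the isoform driven by Ras and Rap, was at 6.60, 6.70 and 6.76 after sevoflurane and 6.54, 6.37 and 6.38 in controls, a difference of 0.26 (unadjusted p = 0.0444 and adjusted p = 1 from limma). It did not pass without sevoflurane replicate 2 or 3 or control replicate 2 or 3 (unadjusted p of 0.107, 0.121, 0.136 and 0.140 from limma), where its differences were 0.25, 0.22, 0.23 and 0.23. Plce1 lay above the 95th percentile of the background controls on 0 of 6 arrays.

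**Figure D5:**
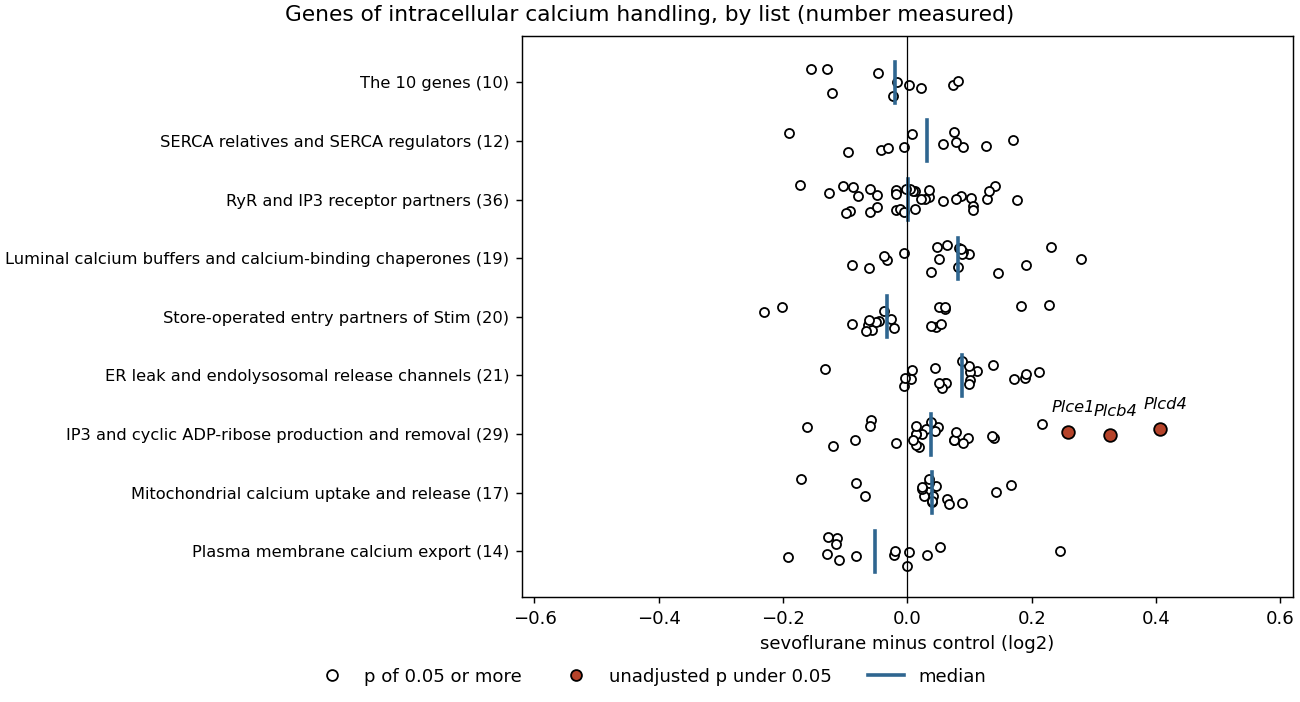
Sevoflurane minus control (log2) for the 10 genes and for each measured gene of 8 calcium-handling lists, with the number measured in brackets and a bar at each list's median. Filled points passed an unadjusted p under 0.05 from limma, and they are Plcd4, Plcb4 and Plce1 at 0.41, 0.33 and 0.26.

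No direct partner of the channels and pumps passed the test. Of 36 measured partners of ryanodine and IP3 receptors, 0 passed, and the median difference was 0.00. Ahcyl1, also called IRBIT, which competes with IP3 for its receptor, was at 10.75, 10.91 and 10.92 after sevoflurane and 10.70, 10.65 and 10.70 in controls (difference 0.18, unadjusted p = 0.129 from limma). The scaffold Homer1, which ties glutamate receptors to IP3 receptors, was at 9.01, 9.07 and 9.24 after sevoflurane and 9.26, 9.29 and 9.29 in controls (difference -0.17, unadjusted p = 0.147 from limma). Groups did not overlap for both and for Selenon, at 0.14 (unadjusted p = 0.234 from limma), which is 3 of the 36. Over the 8 lists this held for 13 of 168 genes, or 7.74%, against 6.27% of all genes. Of 12 measured relatives and regulators of SERCA, 0 passed, with a median of 0.03. Phospholamban (Pln), the SERCA inhibitor of heart, had a difference of -0.19 (unadjusted p = 0.162 from limma) and S100a1, an activator of SERCA and ryanodine receptors, of 0.17 (unadjusted p = 0.170 from limma). Pln lay above the 95th percentile of the background controls on 0 of 6 arrays and S100a1 on all 6.

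Inside the store, 0 of 19 luminal buffers and calcium-binding chaperones passed, although 14 of the differences were positive and the median was 0.08. The calreticulin relative Calr4 came nearest, at 0.23 (unadjusted p = 0.0526 from limma), followed by the calsequestrin Casq2, the luminal buffer of heart muscle, at 0.28 (unadjusted p = 0.0968 from limma). Both lay above the 95th percentile of the background controls on 0 of 6 arrays. The list of leak and endolysosomal release channels also holds Bcl-2 family genes such as Mcl1 and Bax. Among its 21 measured genes 18 differences were positive, with a median of 0.09, and 0 passed. Tmbim6, a leak channel also known as Bax inhibitor-1, was at 9.43, 9.48 and 9.56 after sevoflurane and 9.19, 9.31 and 9.33 in controls, a difference of 0.21 (unadjusted p = 0.0766 from limma). Groups did not overlap for Tmbim6 and for the pannexin Panx1, at 0.11 (unadjusted p = 0.278 from limma), which is 2 of the 21. Of the 19 luminal genes this held for Calr4 alone, and over all genes for 6.27%. Panx1 lay above the 95th percentile of the background controls on 0 of 6 arrays. Mcl1, a survival protein of the Bcl-2 family, was at 0.17 (unadjusted p = 0.270 from limma).

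Of 20 measured partners of Stim in store-operated entry 0 passed, with a median of -0.03. Orai2, a subunit of the entry channel that Stim opens, was at 8.84, 9.03 and 8.96 after sevoflurane and 8.74, 8.85 and 8.56 in controls (difference 0.23, unadjusted p = 0.0907 from limma), and the tether Esyt3 was at -0.20 (unadjusted p = 0.174 from limma). Of 17 measured genes of mitochondrial calcium uptake and release 0 passed, with a median of 0.04. The mitochondrial sodium-calcium exchanger Slc8b1 was at 0.17 (unadjusted p = 0.209 from limma) and the contact-site protein Pacs2 at 0.14 (unadjusted p = 0.225 from limma). Slc8b1 lay above the 95th percentile of the background controls on 0 of 6 arrays and Pacs2 on all 6. Of 14 measured genes of calcium export at the plasma membrane, a list that also holds Bsg, Nptn and Tesc, 0 passed, with a median of -0.05. The potassium-dependent exchanger Slc24a4 lay just short, at 7.82, 7.86 and 8.00 after sevoflurane and 7.59, 7.72 and 7.63 in controls (difference 0.25, unadjusted p = 0.0508 from limma), while the sodium-calcium exchanger Slc8a1 was at -0.19 (unadjusted p = 0.228 from limma).

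Some markers of other cell types did pass the unadjusted threshold between these groups, as did 1.32% of all genes. None of the markers passed after adjustment. Of 12 astrocyte markers 2 were higher by limma, the connexin Gjb6 by 0.76 and the aldolase Aldoc by 0.30. Itpr2, the astrocyte-associated receptor, had a difference of 0.02 on the same arrays. Of 11 microglia markers C1qc was higher, by 0.50, and the list mean was 7.16, 7.19 and 7.82 after sevoflurane and 7.15, 7.16 and 7.11 in controls, with only sevoflurane replicate 3 apart. Of 11 oligodendrocyte markers Mag and Mal were higher, by 0.39 and 0.27, and Opalin was lower, at -0.61. Of 12 choroid plexus markers Cldn2 was higher, by 0.24, while Ttr differed by 0.01, and 7 of the 12 differences were positive and 5 negative. C1qc lay above the 95th percentile of the background controls on 1 of 6 arrays and Cldn2 on 0. None of the measured markers of interneurons, endothelial cells or mural cells passed.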

How the data were processed

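RNA from the hippocampus of 3 sevoflurane and 3 control rats was hybridised to 6 one-colour Clariom D Pico arrays, and groups and replicate numbers came from the sample titles. For each array the authors deposited normalized log2 values, 1 for each probe set. Affymetrix Expression Console 1.4.1 is named in the processing notes beside MAS5 and RMA, and which of these methods gave the values is not settled here. The number of arrays limits the precision. The p-values from limma rest on the spread between single rats, drawn toward a value pooled over all probe sets. For Stim1 the standard error was 0.102 by limma and 0.045 by one-way ANOVA, which uses the spread of that gene alone.

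Of 70580 probe sets, 1738 controls were left out and 68842 were tested with no filter on level. By the platform annotation 23446 probe sets had 1 symbol, 505 several and 44891 none, and a gene with several probe sets was represented by the brightest. The test was limma 3.58.1 in R 4.3.3 (lmFit, then eBayes), two-sided, with Benjamini-Hochberg adjustment over all probe sets tested, and single genes also had exact two-sided permutation tests. Alternatives were the one-way ANOVA of the methods, array weights, an intensity trend with robust spread, quantile normalization, median centring, removal of dim probe sets, averaging the probe sets of a gene, the replicate number as a block and leaving out each array. The fit was tested on simulated data.

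The genes, the lists and the rule for named genes were chosen with earlier results of these data known. The rule names all 10 genes, in each calcium list the genes at an unadjusted p under 0.05 or otherwise the 2 with the smallest p, up to 3 genes in each marker list, and the 3 nearest patterns to the members with the smallest and next smallest p. Promoter windows were matched by symbol for all 10 genes in a RefSeq table of GRCr8, and Ryr3 has 2 windows. Protein sequences were not used here.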

Additional observations from a re-analysis of the deposited data

How the results depend on the processing

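No gene of the 10 passed an unadjusted p under 0.05 under any of the 14 alternatives, which gave 140 values with a smallest unadjusted p of 0.0751 from limma (Stim2 with array weights) and sizes up to 0.26 on the log2 scale. In 127 of the 140 the 95% interval stayed within 1.5-fold, and 8 of the 10 genes did by the methods' one-way ANOVA, after centring on the median, and without sevoflurane replicate 2 or 3 or control replicate 2 or 3. Itpr1 and Stim1 kept their direction in all 14, while 16 values of other genes turned direction. Array weights were 0.174 for sevoflurane replicate 1, 3.25 for sevoflurane replicate 2 and 3.035 for control replicate 3. The remaining arrays had weights of 0.73 to 0.95, so that fit leaned on sevoflurane replicate 2 and control replicate 3. With these weights the differences were 0.0591 for Ryr2, 0.0104 for Ryr3, -0.12 for Itpr3 and 0.21 for Stim2. Quantile normalization gave 0.0438 for Atp2a2, and centring on the median -0.0054 for Itpr3. With 1 array left out the differences ran between -0.075 and 0.0247 for Ryr1, -0.26 and -0.0246 for Ryr2, -0.23 and 0.0161 for Ryr3, -0.18 and -0.0606 for Itpr1, -0.0444 and 0.0845 for Itpr2, -0.13 and 0.0817 for Itpr3, -0.0792 and 0.00962 for Atp2a2, -0.0502 and 0.16 for Atp2a3, 0.04 and 0.10 for Stim1, and -0.13 and 0.10 for Stim2. Without sevoflurane replicate 1 the sign turned for Ryr3, Itpr3, Atp2a2, Atp2a3 and Stim2, without control replicate 1 for Itpr3 and Stim2, without sevoflurane replicate 2 for Ryr1, and without sevoflurane replicate 3 or control replicate 2 for Itpr2. The causes were not tested.

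Over all probe sets 1108 passed an unadjusted p under 0.05 from limma, and this count moved with most settings. It was 1735 by the methods' one-way ANOVA, 9566 with array weights (23 after adjustment), 2096 with quantile normalization and 672 with the filter on dim probe sets. With 1 array left out it ran from 624 (without control replicate 1) to 4138 (without sevoflurane replicate 1), and the share higher after sevoflurane was 53.7% with all arrays and 32.2% without sevoflurane replicate 1. In the calcium lists, genes passing by ANOVA were 1 receptor partner, 1 luminal buffer, 2 genes of the leak list, 4 genes of IP3 and cyclic ADP-ribose and 1 exporter. An intensity trend with robust spread gave 3 genes of IP3 and cyclic ADP-ribose and 1 exporter. Array weights gave 1 SERCA regulator, 5 receptor partners, 5 luminal buffers, 1 Stim partner, 3 genes of the leak list (Mcl1 among them), 5 genes of IP3 and cyclic ADP-ribose and 1 exporter. Quantile normalization gave 2 receptor partners, 4 luminal buffers, 1 Stim partner, 1 gene of the leak list, 4 genes of IP3 and cyclic ADP-ribose and 1 exporter. Centring on the median gave 2 genes of IP3 and cyclic ADP-ribose. The filter on dim probe sets and the mean of probe sets per gene each gave 1 luminal buffer, 1 gene of the leak list, 3 genes of IP3 and cyclic ADP-ribose and 1 exporter. With 1 array left out the counts ran from 0 to 1 for receptor partners, 0 to 2 for luminal buffers, 0 to 1 for Stim partners, 0 to 2 for the leak list, 1 to 4 for IP3 and cyclic ADP-ribose and 0 to 1 for exporters. Plce1 did not pass with centring on the median (unadjusted p = 0.110 from limma). The mean of probe sets per gene gives no count over all probe sets.

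Samples of the 2 groups share replicate numbers, and no label says that the numbers pair them. Deviations of same-numbered samples from their group means correlated at -0.585, -0.288 and 0.0263. These correlations run over all probe sets and take in the shift of sevoflurane replicate 1, so they cannot settle whether the numbers pair the samples. With the replicate number as a block 490 probe sets passed, as did 1 gene of the IP3 and cyclic ADP-ribose list, Plcd4. Plcb4 (unadjusted p = 0.0657 from limma) and Plce1 (unadjusted p = 0.129) did not pass.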
